A study of Homo sapiens with 30 samples.

Results

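MT-RNR1 and MT-RNR2 are the 2 ribosomal RNAs encoded by the human mitochondrial genome, and they are 2 of the 60675 genes in the deposited expected-count table and 2 of its 37 mitochondrially encoded genes. Their rows were read in 30 libraries of HT29, a line derived from a human colorectal adenocarcinoma, and expressed as CPM, the usual scaling of a count by its library total, and as a percentage of each library. The pair was chosen by these CPM values, because both were high in cells given Banhasasim extract, so every value of the pair in that extract is given below as a description, with no test. All cells were exposed for 24 h, either to a 70% ethanol extract of a herbal formula or to vehicle. The 20, 100 and 500 µg/mL doses of Banhasasim-tang had 2 libraries each. Yijung-tang had 1 library at each of these doses, Bojungikgi-tang and Sayeok-tang had 3 at each dose, and the vehicle had 3. The sample labels give the vehicle as 0.1% DMSO, whereas the text on the series as a whole gives 2% DMSO. That text also mentions a second dose scheme set by toxicity for some extracts, but the labels give these doses for all 4 extracts used here. Nothing in the labels says that libraries of 1 group came from separate cultures, so the p-values below measure only the spread between these libraries, which may be technical.

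The mitochondrial ribosome builds the hydrophobic core subunits of the respiratory chain inside the organelle. MT-RNR1 is the 12S RNA of its small subunit, which decodes the mRNA, and MT-RNR2 is the 16S RNA of its large subunit, which forms the peptide bond. Both are transcribed from the heavy-strand promoter region as the first part of a long polycistronic RNA that continues into the mRNAs, and the tRNAs that lie between the genes are cut out to release each RNA. In colon epithelium, as in other tissues, they are among the most abundant mitochondrial transcripts, and they end in short oligo(A) tails, whereas most mitochondrial mRNAs have longer poly(A) tails. Libraries made to enrich mRNA therefore usually hold only part of this rRNA.

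MT-RNR1 (ENSG00000211459) lies at chrM:648-1601 on the + strand of GRCh38 and is 954 bases long. MT-RNR2 (ENSG00000210082) lies at chrM:1671-3229 on the same strand and is 1559 bases long. Each is a single exon without coding sequence, and MT-TV, the valine tRNA, fills the gap between them. The ends of the rRNAs are shown because the RNA is released there by cutting at a tRNA. In the 4 lines below, taken from the GENCODE 29 transcripts of GRCh38 and written 5′ to 3′ on the + strand, capitals mark 20 bases of the rRNA and lower case marks 20 bases of the neighbouring tRNA gene.
MT-RNR1 5′ end after MT-TF, chrM:628-667: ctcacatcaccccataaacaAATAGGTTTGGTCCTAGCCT
MT-RNR1 3′ end before MT-TV, chrM:1582-1621: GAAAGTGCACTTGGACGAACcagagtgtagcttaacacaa
MT-RNR2 5′ end after MT-TV, chrM:1651-1690: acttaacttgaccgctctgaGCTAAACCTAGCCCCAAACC
MT-RNR2 3′ end before MT-TL1, chrM:3210-3249: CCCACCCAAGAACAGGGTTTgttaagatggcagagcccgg
No base separates rRNA and tRNA at any of these 4 junctions.

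Runs of A inside a transcript are shown as well, because a kit that enriches mRNA by its poly(A) tail can also meet such runs. Capitals mark the longest run of A in each rRNA.
MT-RNR1, chrM:973-1018: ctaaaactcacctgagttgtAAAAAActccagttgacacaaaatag
MT-RNR2, chrM:2437-2483: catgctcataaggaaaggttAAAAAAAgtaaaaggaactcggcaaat
The runs are 6 and 7 bases long, and those of the 13 mitochondrial mRNAs range from 3 bases in MT-ND4L and MT-ND6 to 8 in MT-ND5. A made up 33.0% of MT-RNR1 and 35.1% of MT-RNR2. Of the mRNAs, MT-ATP8 had a larger share of A, with 38.6%, and the others ranged from 19.6% in MT-ND6 to 31.3% in MT-ND2. In length of run the rRNAs thus fall among the mRNAs. Whether any of these features bears on the levels was not tested.

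Library totals ranged from 36273849 to 71625585 counts. Counting error was therefore small: the 95% Wilson interval of the share taken by both rRNAs was 12.85% to 12.87% in one Banhasasim 500 µg/mL library and 9.400% to 9.417% in the other. Such intervals cover counting error only. Vehicle replicate 1 stood apart on the first principal component of log2 CPM, and on the second the pair of libraries given 500 µg/mL Banhasasim did. Bojungikgi 500 replicate 2 stood apart at the other end of the first component. On that component the Banhasasim 500 µg/mL libraries differed, with -28.73 for replicate 2 and -2.27 for replicate 3. The chi-square per gene between their counts, rRNAs included, was 45.07, the highest for any 2 libraries of 1 group. Bojungikgi 500 replicates 2 and 3 had nearly as high a value, with 44.025, and vehicle replicates 1 and 3 had 34.725. The part of the Banhasasim value that comes from the rRNAs was not computed. Between the Banhasasim 20 µg/mL libraries the chi-square per gene was 4.467. Markers of colon epithelium summed to 9490 to 12300 CPM in all libraries. Markers of fibroblasts and endothelium summed to no more than 4.80 CPM. Of the leukocyte markers LYZ, a lysozyme also made by gut epithelium, had 1620 to 2010 CPM, whereas PTPRC, the pan-leukocyte CD45, had at most 0.0732 CPM. At Banhasasim 500 against 20 µg/mL none of the 5 testable leukocyte and 3 testable stromal markers was called by edgeR (0 and 1 had an unadjusted p under 0.05), and of 10 colon markers 1 was higher and 1 lower. In that comparison 7.82% of all genes were called in either direction.

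MT-RNR1 was graded by dose in Banhasasim. The vehicle libraries had 1343, 1166 and 1186 CPM. In Banhasasim it had 1261 and 1100 CPM at 20 µg/mL, then 3041 and 3170 CPM at 100 µg/mL, then 28557 and 22402 CPM at 500 µg/mL. The 500 µg/mL libraries lay far above all others, the 100 µg/mL libraries lay above all the remaining ones, and the 20 µg/mL libraries overlapped the vehicle. The mean at 500 µg/mL was 25480 ± 4350 CPM (SD, n = 2), against 1181 ± 114 CPM at 20 µg/mL (SD, n = 2), a ratio of 21.6. At 100 µg/mL the mean was 3106 ± 91.7 CPM, which is 2.63 times the mean at 20 µg/mL. In these bulk samples, more RNA per cell and a different mix of cells cannot be told apart.

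MT-RNR2 moved in the same order but over a smaller range. The vehicle libraries had 10220, 9458 and 9738 CPM. In Banhasasim it had 9663 and 8984 CPM at 20 µg/mL, then 15973 and 15970 CPM at 100 µg/mL, then 100063 and 71683 CPM at 500 µg/mL. The Banhasasim 500 and 100 µg/mL libraries again lay above all others, and 1 of the 20 µg/mL libraries lay below every vehicle library. The mean at 500 µg/mL was 85873 ± 20100 CPM (SD, n = 2), against 9324 ± 480 CPM at 20 µg/mL (SD, n = 2), a ratio of 9.21. At 100 µg/mL the ratio to 20 µg/mL was 1.71. Both 500 µg/mL libraries had MT-RNR2 as the gene with the most counts and MT-RNR1 as the gene in rank 2. At 100 µg/mL MT-RNR2 was also in rank 1 in both libraries, whereas MT-CO1, which carries the oxygen-reducing centre of respiratory complex IV, was in rank 1 in the other 26 libraries of the study.

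**Figure D1:**
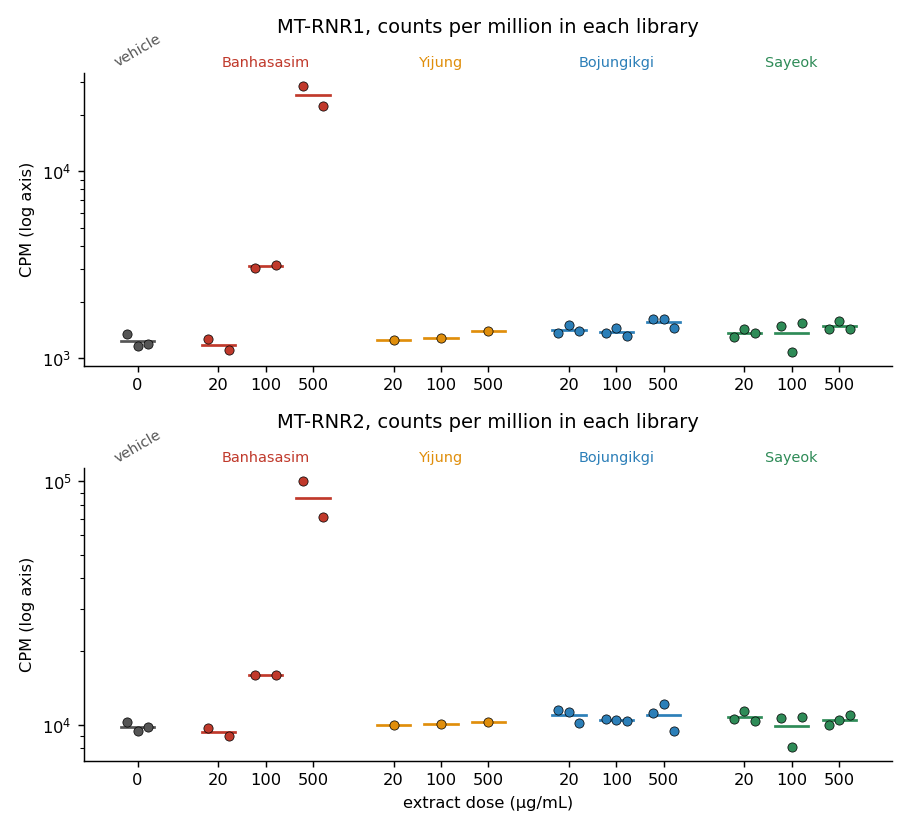
CPM of MT-RNR1 (top) and MT-RNR2 (bottom) in each of the 30 libraries (points) with the group mean (line), by extract and dose in µg/mL, with vehicle at 0. The CPM axes are logarithmic. The Banhasasim 100 µg/mL libraries (3041 and 3170 CPM of MT-RNR1) and the 500 µg/mL libraries (28557 and 22402 CPM) stand above all others, which lie between 1075 and 1624 CPM.

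The other 26 libraries, which hold the vehicle, Banhasasim at 20 µg/mL and all doses of Yijung, Bojungikgi and Sayeok, kept to a narrow band. MT-RNR1 ranged over them from 1075 to 1624 CPM with a median of 1376 CPM, and MT-RNR2 ranged from 8060 to 12206 CPM with a median of 10366 CPM. Together the rRNAs took 0.914% to 1.38% of the counts of these libraries, against 1.90% and 1.91% at Banhasasim 100 µg/mL. The order of the group means for MT-RNR1 was Banhasasim 500, Banhasasim 100, Bojungikgi 500, Sayeok 500, Bojungikgi 20, Yijung 500, Bojungikgi 100, Sayeok 20, Sayeok 100, Yijung 100, Yijung 20, vehicle and Banhasasim 20. Only the first and the second of these groups stood clear of the next in every library, apart from Yijung 100 over Yijung 20, where each group is 1 library. For MT-RNR2 the same groups came first, followed by Bojungikgi 20 with 10950 ± 695 CPM and Bojungikgi 500 with 10935 ± 1410 CPM (SD, n = 3 each), which overlapped. Banhasasim 20 was the lowest group for both rRNAs, and it overlapped the vehicle, which was next to it.

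The 2 rRNAs did not keep a fixed proportion. Per base of gene length, MT-RNR1 over MT-RNR2 was 0.215, 0.201 and 0.199 in the vehicle libraries. In Banhasasim it was 0.213 and 0.200 at Banhasasim 20 µg/mL, 0.311 and 0.324 at 100 µg/mL, and 0.466 and 0.511 at 500 µg/mL. The ratio needs no scaling between libraries, and at both higher doses of Banhasasim it lay above the range of the other 26 libraries, which was 0.194 to 0.250. The mean was 0.489 ± 0.0313 at 500 µg/mL and 0.207 ± 0.00927 at 20 µg/mL (SD, n = 2 each). The step from 20 to 100 µg/mL multiplied the mean ratio by 1.54, and the step from 100 to 500 µg/mL did so by 1.54 again. MT-RNR2 remained the more abundant of the pair per base in every library.

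**Figure D2:**
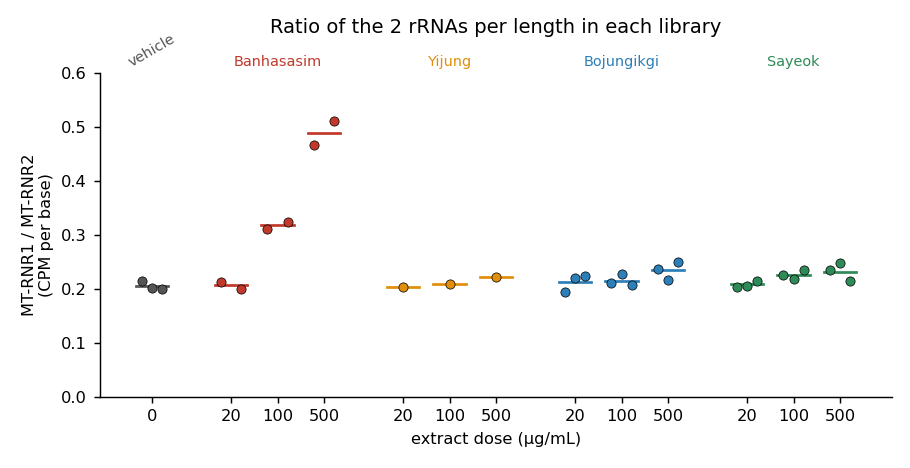
Ratio of MT-RNR1 to MT-RNR2, each as CPM per base, in each library (points) with the group mean (line), by extract and dose in µg/mL, with vehicle at 0. The ratio goes up with the Banhasasim dose to 0.466 and 0.511 at 500 µg/mL, and lies between 0.194 and 0.250 in the other 26 libraries outside Banhasasim 100 and 500 µg/mL.

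The comparisons without Banhasasim did not choose the pair, and they were tested with edgeR's quasi-likelihood test, with Benjamini-Hochberg adjusted p-values over all 18783 genes tested. None of the 8 tests of a member passed an adjusted p of 0.05. In Bojungikgi, MT-RNR1 had 1620, 1624 and 1443 CPM at 500 µg/mL, against 1360, 1512 and 1393 CPM at 20 µg/mL. The lowest library at 500 µg/mL lay within the range at 20 µg/mL. The log2 fold change was 0.15 ± 0.12 (SE; edgeR adjusted p = 0.665), in a comparison in which 1.76% of all genes were called. For MT-RNR2 it was 0.01 ± 0.12 (edgeR adjusted p = 0.992). Without Bojungikgi 500 replicate 2, which had the highest level of both rRNAs outside Banhasasim 100 and 500 µg/mL (1624 and 12206 CPM), the log2 fold changes were 0.12 and -0.07 (adjusted p = 0.859 and 0.929).

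In Sayeok, MT-RNR1 had 1440, 1576 and 1431 CPM at 500 µg/mL, against 1306, 1438 and 1362 CPM at 20 µg/mL. The groups overlapped by a narrow margin. The log2 fold change was 0.14 ± 0.12 (SE; edgeR adjusted p = 0.684), with 3.18% of all genes called, and for MT-RNR2 it was -0.02 ± 0.12 (edgeR adjusted p = 0.979). Sayeok 100 µg/mL replicate 2 had the lowest level of both rRNAs in the study, with 1075 CPM of MT-RNR1 and 8060 CPM of MT-RNR2, and it also had the lowest share of mitochondrial mRNA outside Banhasasim 500 µg/mL, with 5.15%. Against the vehicle, the log2 fold change of MT-RNR1 was 0.30 ± 0.12 at Bojungikgi 500 µg/mL (SE; edgeR adjusted p = 0.0646) and 0.24 ± 0.12 at Sayeok 500 µg/mL (edgeR adjusted p = 0.190). These comparisons share the vehicle libraries, and 29.7% and 16.6% of all genes were called in them. For Bojungikgi the value was 0.29 without 500 replicate 2 and 0.38 without vehicle replicate 1 (adjusted p = 0.174 and 0.0595), and for Sayeok it was 0.32 without vehicle replicate 1 (adjusted p = 0.156). DESeq2's Wald test called MT-RNR1 at Bojungikgi 500 µg/mL against the vehicle, with the same log2 fold change of 0.30 (adjusted p = 0.0219). The vehicle libraries carry another series of sample codes than the extracts, so that the code series and the treatment cannot be told apart.

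The mean ratio of the rRNAs was higher at the top dose of these extracts, but the libraries overlapped and neither test passed. Per base it was 0.235 ± 0.0165 at Bojungikgi 500 µg/mL and 0.213 ± 0.0163 at 20 µg/mL (SD, n = 3 each). It was 0.232 ± 0.0169 at Sayeok 500 µg/mL and 0.208 ± 0.00646 at 20 µg/mL (SD, n = 3 each). In each extract 2 of 3 libraries at 500 µg/mL lay above every library at 20 µg/mL. The log2 differences were 0.14 in Bojungikgi and 0.16 in Sayeok, and two-sided exact permutation tests gave p = 0.300 and p = 0.200, where 0.100 is the smallest that 3 libraries against 3 allow. Without Bojungikgi 500 replicate 2 the difference was 0.20 (two-sided exact permutation p = 0.200, the smallest that 2 against 3 allow). In Yijung, which had no replicates, the ratio was 0.203, 0.209 and 0.221 at 20, 100 and 500 µg/mL.

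Across the 24 libraries outside Banhasasim the levels of the rRNAs were correlated. The permutations below ignored groups and code series, so differences between these enter the p-values. Pearson's r between log2 CPM of MT-RNR1 and MT-RNR2 was 0.75 (permutation p = 4.00e-05, adjusted p = 0.000240 over 6 relations), and Spearman's rho was 0.60 (permutation p = 0.00246). Without Sayeok 100 replicate 2 and vehicle replicate 2, the libraries farthest from the median of MT-RNR1, r was 0.57. Within the 18 libraries of Bojungikgi and Sayeok, which share 1 code series, r was 0.72 (permutation p = 0.00666, adjusted p = 0.0200) and rho was 0.40 (permutation p = 0.105), but r fell to 0.19 without Sayeok 100 replicate 2 and Bojungikgi 500 replicate 2, so there it rests on these libraries. Both rRNAs share the depth and the total of each library. Against the summed mitochondrial mRNAs, r over the 24 libraries was 0.28 for MT-RNR1 and 0.45 for MT-RNR2 (permutation p = 0.198 and 0.0453, adjusted p = 0.198 and 0.0581), with rho of 0.04 and 0.23. Within the 18 libraries these r were 0.53 and 0.61 (permutation p = 0.0484 and 0.0264, adjusted p = 0.0581 and 0.0528), with rho of 0.16 and 0.38. They fell to 0.23 and 0.47 without Sayeok 100 replicate 2 and Bojungikgi 500 replicate 2.

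The 13 mRNAs of the same genome encode subunits of respiratory complexes I, III and IV and of ATP synthase. In sum they took a smaller share of the library at Banhasasim 500 µg/mL than in any other library. The sum was 3.99% and 2.56% of counts at 500 µg/mL, against 5.15% to 8.26% in the other 28 libraries. Those at Banhasasim 100 µg/mL, with 5.89% and 6.12%, lay within that range. Their mean was 6.00%, which is below the 7.02% at 20 µg/mL. With the rRNA counts left out of the library totals, the shares at 500 µg/mL were 4.58% and 2.82%, against 5.19% to 8.36%, so the groups did not overlap on either scale. The rRNA count was 0.150 and 0.149 times the summed mRNA count at Banhasasim 20 µg/mL, 0.323 and 0.313 times at 100 µg/mL, and 3.22 and 3.68 times at 500 µg/mL. It was 0.140 to 0.217 times in the other 26 libraries, which include those at 20 µg/mL.

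**Figure D3:**
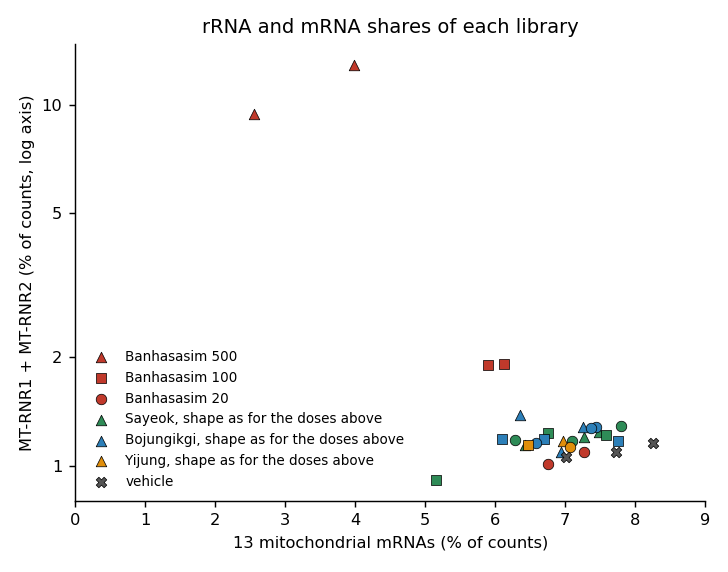
Share of counts taken by MT-RNR1 and MT-RNR2 together (y axis, percent, logarithmic) against the share taken by the 13 mitochondrial mRNAs (x axis, percent) in each of the 30 libraries. Colour gives the extract and shape the dose. The 2 Banhasasim 500 µg/mL libraries, with 12.9% and 9.41% rRNA, hold 3.99% and 2.56% mRNA, and no other library holds less than 5.15% mRNA.

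In Banhasasim at 500 against 20 µg/mL, 0 of the 13 mRNAs were higher and 5 were lower, with a median log2 fold change of -0.94, while 7.82% of all genes were called in either direction and 4.00% of all genes were called lower, with a median of 0.005 over all genes. MT-ND4, a proton-pumping subunit of complex I, had 3500 and 2090 CPM at 500 µg/mL, against 9050 and 8450 CPM at 20 µg/mL. Its log2 fold change was -1.50 ± 0.20 (SE; edgeR adjusted p = 5.2e-05). MT-CO1 had 7640 and 5590 CPM at 500 µg/mL, against 16000 and 15100 CPM at 20 µg/mL, and a log2 fold change of -1.09 ± 0.15. MT-ND4L, which is another complex I subunit, and MT-CO2 and MT-CO3, which are core subunits of cytochrome oxidase, changed by -1.36 ± 0.21, -1.13 ± 0.25 and -1.15 ± 0.22. For each of these 5 genes both 500 µg/mL libraries lay below both 20 µg/mL libraries. The test that called them used these same libraries, so this separation is only a description. The share of all genes that separate so was not counted.

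The number of mRNAs called depended on the setting. It was 0 with only these 4 libraries in the fit, 8 with DESeq2's Wald test, 12 (1 higher and 11 lower) without a filter on low counts, and 4 to 8 when 1 library was left out, with 8 without Banhasasim 500 replicate 2. MT-CO2 did not pass without Banhasasim 20 replicate 2 or 500 replicate 3 (edgeR adjusted p = 0.0576 and 0.0835). Against the vehicle, where 15.3% of all genes were called, 0 were higher and 8 were lower (7.12% of all genes were called lower), and 4 were lower without Banhasasim 500 replicate 3. In Bojungikgi and in Sayeok 0 of the 13 passed at 500 against 20 µg/mL by edgeR, and 0 had an unadjusted p under 0.05. DESeq2's Wald test gave 0 there as well.

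Not all mRNAs were low. MT-ND6, a complex I subunit and the only one of the 13 encoded on the other strand, had 461 and 243 CPM at Banhasasim 500 µg/mL, against 239 and 199 CPM at 20 µg/mL. Its log2 fold change was 0.84 ± 0.36 (SE; edgeR adjusted p = 0.189), and the vehicle libraries, with 280 to 616 CPM, overlapped it. MT-ND5, the complex I subunit whose gene lies beside MT-ND6, had 3110 and 1690 CPM at 500 µg/mL, against 3010 and 2630 CPM at 20 µg/mL, with a log2 fold change of -0.08 ± 0.21. MT-CYB, the cytochrome b of complex III, had a log2 fold change of -0.44 ± 0.22 (edgeR adjusted p = 0.264). The genes of the last part of the genome thus had values closer to those at 20 µg/mL than MT-ND4 had.

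Set in the order of the genome, the ratios of mean CPM at Banhasasim 500 over 20 µg/mL were highest at its beginning. They were 21.6 for MT-RNR1 and 9.21 for MT-RNR2, then 0.572 for MT-ND1 and 0.479 for MT-ND2, which encode membrane subunits of complex I. The lowest was 0.319, for MT-ND4, and the last genes were at 0.852 for MT-ND5, 1.61 for MT-ND6 and 0.666 for MT-CYB. The drop between MT-RNR2 and MT-ND1 spans a single tRNA gene, MT-TL1. At 100 over 20 µg/mL the order was smoother, with 2.63 for MT-RNR1, 1.71 for MT-RNR2, 1.45 for MT-ND1, 1.33 for MT-ND2 and 0.891 for MT-CO1. The genes that follow MT-CO1 had ratios of 0.704 to 0.860, apart from MT-ND6 with 1.07.

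MT-ND1 had 4670 and 5190 CPM at Banhasasim 100 µg/mL, against 3400 and 3370 CPM at 20 µg/mL, and MT-ND2 had 4900 and 5770 CPM, against 4400 and 3650 CPM. Both libraries at 100 µg/mL were higher than both at 20 µg/mL for either gene, but the share of all genes that separate so was not counted. None of the 13 mRNAs passed the test at 100 against 20 µg/mL, where 0.0852% of all genes were called. By edgeR 3 of the 13 had an unadjusted p under 0.05, and DESeq2 called 0. With only these 4 libraries in the fit 7 were called, 1 higher and 6 lower, and without a filter 10 were called, 2 higher and 8 lower. In Bojungikgi and Sayeok the 500 over 20 µg/mL ratios of the 13 mRNAs stayed between 0.787 and 1.13.

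**Figure D4:**
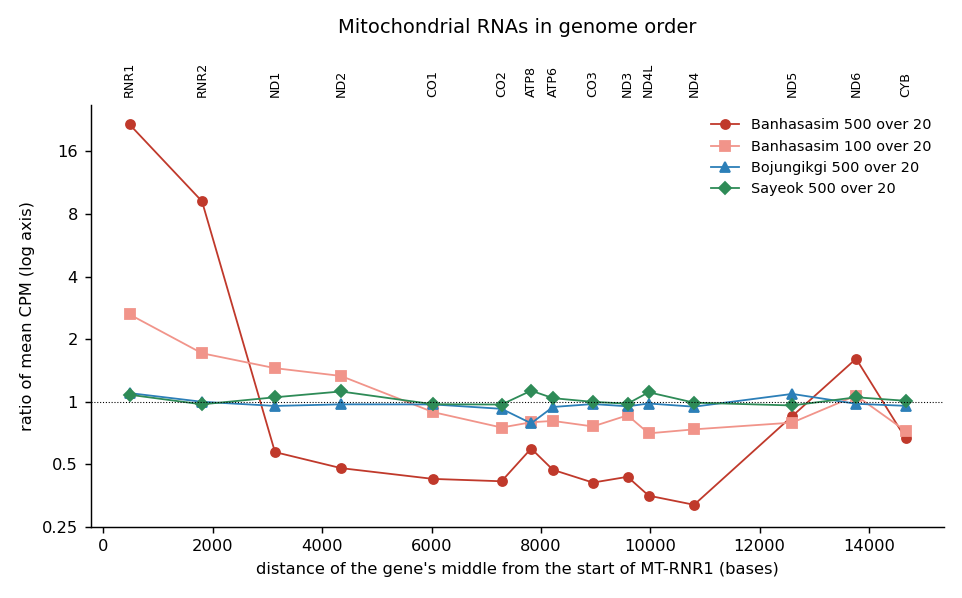
Ratio of mean CPM (logarithmic axis) for the 2 rRNAs and 13 mRNAs, placed by the distance of each gene's middle from the start of MT-RNR1 in bases, for Banhasasim 500 and 100 over 20 µg/mL, Bojungikgi 500 over 20 µg/mL and Sayeok 500 over 20 µg/mL. MT-RNR1 is at 21.6 and MT-ND4 at 0.319 for Banhasasim 500 over 20 µg/mL, while the Bojungikgi and Sayeok points lie between 0.787 and 1.13.

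The change of 4 mRNAs from 20 to 500 µg/mL differed between Banhasasim and the mean of Bojungikgi and Sayeok. In this test of the difference 2.05% of all genes were called in either direction and 0.729% of all genes were called lower. The 4 were MT-ND4, with a difference of -1.47 ± 0.23, MT-ND4L with -1.44 ± 0.24, MT-CO1 with -1.07 ± 0.17 and MT-CO3 with -1.15 ± 0.25 on the log2 scale (SE). Their edgeR adjusted p-values were 0.000864, 0.00175, 0.000704 and 0.0155. MT-CO3 did not pass without Banhasasim 20 replicate 2, 20 replicate 3 or 500 replicate 3 (adjusted p = 0.0785, 0.0677 and 0.0928). None of the 13 was higher. The median difference over the 13 was -0.99.

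The 22 mitochondrial tRNAs, which separate the longer genes, were too rare to test. They summed to 0.266 CPM at most, in a library at Banhasasim 500 µg/mL, and none passed the filter on low counts. The floor set by 3 counts was 0.0419 to 0.0827 CPM. Nuclear copies of MT-RNR2 were rare as well: the 11 listed genes, all of them MTRNR2L loci whose sequence is close to that of MT-RNR2, summed to 0.534 and 0.605 CPM at Banhasasim 500 µg/mL, against 0.311 to 0.815 CPM in the other 28 libraries. Reads shared between such copies can be split by the authors' estimation, so their own values are uncertain. Only 3 of the 11 could be tested at 500 against 20 µg/mL, and 0 were called, by edgeR at an adjusted or an unadjusted p under 0.05 or by DESeq2. MTRNR2L12, which was too rare for the filter and is named after its values were seen, had 0.149 and 0.181 CPM at Banhasasim 500 µg/mL, against 0 to 0.0623 CPM in the other 28 libraries. Both libraries at 20 µg/mL had 0. It was the 1 copy called, higher, when no filter was used (edgeR adjusted p = 0.0133).

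Nuclear genes that make, process and assemble the mitochondrial rRNAs were compared at Banhasasim 500 against 20 µg/mL, where 3.82% of all genes were called higher. Of 17 genes of mitochondrial transcription and DNA maintenance 0 were called, 2 having an unadjusted p under 0.05, with a median log2 fold change of -0.03, and DESeq2's Wald test called 0 as well. POLRMT, the mitochondrial RNA polymerase, had 39.7 and 41.4 CPM at 500 µg/mL, against 40.5 and 38.7 CPM at 20 µg/mL. These raw levels overlap, and the log2 fold change after TMM scaling was 0.17, which was not called. GABPA, a nuclear transcription factor for many mitochondrial genes, had 34.3 and 39.5 CPM, against 46.1 and 47.2 CPM (edgeR adjusted p = 0.0810, log2 fold change -0.21 ± 0.07). The vehicle libraries had 32.2 to 40.4 CPM of GABPA, which overlaps the range at 500 µg/mL.

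Of 20 genes of rRNA processing and modification 1 was higher, 0 were lower and 19 did not pass. The 1 gene was NGRN, which encodes a protein needed for 16S rRNA and mitochondrial ribosome assembly. It had 141 and 143 CPM at 500 µg/mL, against 135 and 138 CPM at 20 µg/mL, with a log2 fold change of 0.19 ± 0.05 (SE; edgeR adjusted p = 0.0154). The vehicle libraries had 142, 141 and 142 CPM, within the range at 500 µg/mL in raw CPM only. TMM scaling, used for the log2 fold change, divides by 0.8983 and 0.952 at 500 µg/mL and by 0.9486, 0.9908 and 0.9858 in the vehicle. MRM2, which methylates the ribose of a 16S rRNA base, had a log2 fold change of 0.15 ± 0.05 (edgeR adjusted p = 0.0787), and GRSF1, an RNA granule protein that binds mitochondrial transcripts, had 0.10 ± 0.05 (adjusted p = 0.221). Of 12 assembly factors 0 were called by edgeR or by DESeq2, 1 of them having an unadjusted p under 0.05 by edgeR. RBFA, which acts late in the maturation of the small subunit, had a log2 fold change of 0.18 ± 0.07 (edgeR adjusted p = 0.165).

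Of 12 genes of mitochondrial RNA decay and tailing 1 was higher and 0 were lower. FASTKD1, which influences the level of the MT-ND3 mRNA, had 20.3 and 24.1 CPM at 500 µg/mL, against 20.5 and 20.7 CPM at 20 µg/mL. These raw levels overlap, and the log2 fold change after scaling was 0.24 ± 0.07 (SE; edgeR adjusted p = 0.0430). SUPV3L1, the helicase of the mitochondrial degradosome, had 0.15 ± 0.05 (edgeR adjusted p = 0.108), and PDE12, which removes poly(A) tails from mitochondrial mRNA, had -0.12 ± 0.05 (adjusted p = 0.182). The calls of NGRN and FASTKD1 were lost with only these 4 libraries in the fit (edgeR adjusted p = 0.0851 and 0.115) and without the filter (0.162 and 0.132). They were also lost without Banhasasim 20 replicate 2 (0.148 and 0.190) or replicate 3 (0.0698 and 0.185), that of NGRN without 500 replicate 2 (0.209) and that of FASTKD1 without 500 replicate 3 (0.329) or with DESeq2's size factors (0.0531).

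The genes for the protein partners of the rRNAs were read beside the same share of all genes, 3.82% higher and 7.82% in either direction. Of 32 proteins of the small mitochondrial subunit 1 was higher, 0 were lower and 31 did not pass, with a median log2 fold change of 0.10. MRPS10, the 1 higher gene, changed by 0.19 ± 0.05 (SE; edgeR adjusted p = 0.0255), and its call was lost without 20 replicate 2 or 500 replicate 2 (adjusted p = 0.273 and 0.271), with only these 4 libraries in the fit (0.107) and without the filter (0.178). Of 50 proteins of the large subunit 0 were called, 6 having an unadjusted p under 0.05, with a median of 0.12, and DESeq2 called 1. MRPL58, which releases stalled peptides from the ribosome, had 20.9 and 20.7 CPM at 500 µg/mL, against 16.2 and 17.9 CPM at 20 µg/mL, with a log2 fold change of 0.42 ± 0.14 (edgeR adjusted p = 0.0671). Of 28 proteins of the cytosolic ribosome 0 were called, 1 having an unadjusted p under 0.05, their median was 0.17, and DESeq2 called 1. At Banhasasim 500 µg/mL against the vehicle the medians of these lists had the other sign. They were -0.11 for the small subunit, -0.12 for the large subunit and -0.07 for the cytosolic ribosome, with -0.015 over all genes.

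In the list of mitochondrial chaperones and proteases 5 of 14 were higher and 0 lower, with a median log2 fold change of 0.15. Of all genes 3.82% were called higher in this comparison. The 5 are 4 chaperones and proteases and DDIT3, a transcription factor. The number called was 3 without Banhasasim 20 replicate 2 and 4 without any other of the 4 libraries compared, 1 of them lower without 500 replicate 2. DESeq2's Wald test called 6 higher and 2 lower. HSPA9, the matrix Hsp70 that draws in and folds imported proteins, had 419 and 443 CPM at 500 µg/mL, against 383 and 389 CPM at 20 µg/mL, and rose by 0.29 ± 0.05 (SE; edgeR adjusted p = 0.000186). TRAP1, the matrix Hsp90, rose by 0.25 ± 0.05, and LONP1, a protease that degrades oxidised matrix proteins, by 0.27 ± 0.07 (edgeR adjusted p = 0.000734 and 0.0109). LONP1 did not pass without 20 replicate 2 or 500 replicate 2 (adjusted p = 0.126 and 0.0709). DDIT3 (CHOP), which acts in stress responses, had 8.36 and 8.50 CPM at 500 µg/mL, against 5.36 and 5.45 CPM at 20 µg/mL, and rose by 0.78 ± 0.14 (edgeR adjusted p = 0.000413). It was the only one of the 14 whose dose change differed from the mean of Bojungikgi and Sayeok, by 0.73 ± 0.16 (edgeR adjusted p = 0.0114), in a test in which 1.32% of all genes were called higher, but not without 20 replicate 2, 20 replicate 3 or 500 replicate 2 (adjusted p = 0.0769, 0.0754 and 0.0822). DNAJA3, a mitochondrial Hsp40 chaperone named here after its values were seen, was the fifth, with 0.16 ± 0.05 (edgeR adjusted p = 0.0330). DNAJA3 did not pass when any 1 of the 4 libraries was left out (adjusted p from 0.0863 to 0.264).

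**Figure D5:**
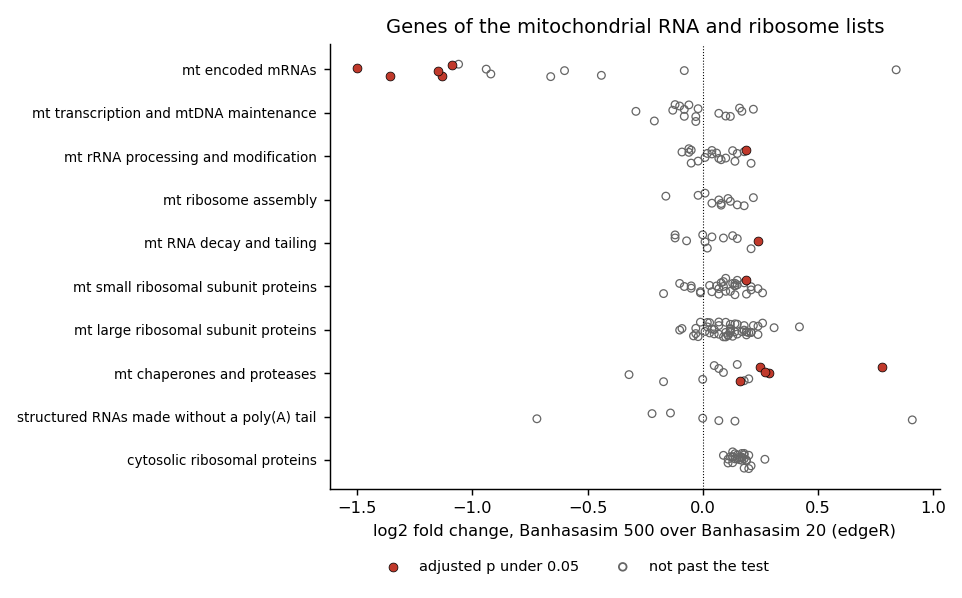
Log2 fold change at Banhasasim 500 over 20 µg/mL (x axis, edgeR) of each tested gene in 10 lists (rows, with mt for mitochondrial), with genes past an adjusted p of 0.05 filled. The mitochondrial mRNAs reach from -1.50 to 0.84 with 5 filled on the left, and the 5 filled points in the chaperone and protease row, 1 of them DDIT3, lie on the right.

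No listed RNA that ends without a poly(A) tail passed the test at Banhasasim 500 against 20 µg/mL. The list held 27 structured RNAs such as 7SL, U small nuclear RNAs and small nucleolar RNAs, of which 7 could be tested and 0 were called, 0 had an unadjusted p under 0.05 and DESeq2 called 0. They summed to 23.7 and 25.1 CPM at Banhasasim 500 µg/mL, against 26.6 and 30.6 CPM at 20 µg/mL and 11.7 to 130 CPM in the other 28 libraries as a whole. Replication-dependent histone mRNAs, a set added after the values were seen, summed to 45.5 and 45.7 CPM at 500 µg/mL, against 52.0 to 63.8 CPM in the other 28 libraries. These are levels on the scale of raw CPM, on which the rRNAs take 12.9% and 9.41% of the total at 500 µg/mL.

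Genes with a pattern like that of the pair were sought by Pearson's r between a gene's mean log2 CPM and the average of the members' mean log2 CPM over the 13 groups, among nuclear genes that passed the filter. As the members stand apart in 2 of these groups, the measure mainly ranks genes by those groups. The 5 highest were GARS1 (r = 0.985), the glycyl-tRNA synthetase, RNF41 (r = 0.980), a ubiquitin ligase, PSPH (r = 0.977), the last enzyme of serine synthesis, ASNS (r = 0.977), the asparagine synthetase, and YARS1 (r = 0.975), the tyrosyl-tRNA synthetase. Their ranges were narrower than those of the rRNAs. GARS1 had 192 ± 0.0580 CPM at Banhasasim 20 µg/mL, then 207 ± 3.77 CPM at 100 µg/mL, then 288 ± 17.1 CPM at 500 µg/mL (SD, n = 2 each). ASNS had 67.9 ± 0.302, 76.6 ± 1.90 and 226 ± 3.75 CPM. These levels are raw CPM, whereas r was computed after TMM scaling. Among the mitochondrial mRNAs the same measure ran from -0.981 for MT-ND4 and -0.966 for MT-CO1 to 0.397 for MT-ND6.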

How the data were processed

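RNA was sequenced from 30 HT29 libraries prepared from 1 µg of total RNA (RNA integrity number above 7) with a directional mRNA kit and read as 100 bp pairs, per the labels' protocols. Tools listed in the submitters' processing notes, with no role or order, are RSEM 1.3.3, STAR 2.7.3a, FastQC 0.11.9 and Trim Galore 0.6.5, and the build is GRCh38. Not given in the sources used here: the annotation release, the strand setting and the way mRNA was enriched. The authors deposited expected counts per gene, as estimated counts that need not be whole, and 240 of the table's 270 columns were not used because they match no sample here. Symbols were found for 57055 of 60675 gene IDs (94.03%), and lengths and sequences come from GENCODE 29.

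CPM and shares were computed from the deposited expected counts with all genes in the total. For tests the expected counts were rounded to whole numbers, genes were filtered with filterByExpr (minimum count 10), and edgeR 4.0.16 (R 4.3.3) was fitted once over all 30 libraries with TMM factors of 0.898 to 1.05 and 1 mean for each of 13 groups, which shared 1 estimate of the spread (17 residual degrees of freedom, biological coefficient of variation 6.38%). The groups with 1 library, of Yijung, were given no comparison. A call means a p under 0.05 after Benjamini-Hochberg adjustment over all genes of a comparison. Standard errors were derived from the log2 fold change and its F statistic. TMM scaling left the median log2 fold change of all genes between -0.015 and 0.005. The procedure was tested on simulated counts: of 100 genes planted with a 1.5-fold change in Banhasasim 500 against 20 it recovered 64%, and of 100 planted with a 3-fold change 97%, among 18417 genes.

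The members and the 15 gene lists (286 genes, 226 tested) were chosen with earlier results of these data known. Named were, from each list, up to 4 genes of at least 1 CPM with the smallest p in Banhasasim 500 against 20, and all mitochondrial mRNAs. Not every gene so picked is printed. DESeq2 1.42.0, other scalings, filters, groups in the fit, left-out libraries and a replicate block were tried as alternatives. Correlations used 100000 resamples (SciPy 1.17.1).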

Additional observations from a re-analysis of the deposited data

Results flagged for a closer look

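The dose change of 5 listed genes differed between Banhasasim and the mean of Bojungikgi and Sayeok in edgeR's test of that difference, adjusted over all genes. On the log2 scale the differences were -1.47 for MT-ND4, -1.44 for MT-ND4L, -1.07 for MT-CO1, -1.15 for MT-CO3 and 0.73 for DDIT3. Both Banhasasim 500 µg/mL libraries lay beyond both 20 µg/mL libraries for each of these genes, but the share of all genes that do so was not counted. The test that picked these genes used the same libraries, so this is only a description. No group had the 4 libraries needed to look for a single outlying library.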

How the results depend on the processing

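Of the alternatives, the fit without a filter on low counts and the fit restricted to the groups compared moved most values. Without the filter the genes called were 86 in Banhasasim 100 against 20, 606 in Bojungikgi 500 against 20 and 680 in the test of the difference, against 16, 331 and 385 with it. The mitochondrial mRNAs called without it were 10 in Banhasasim 100 against 20, 12 in Banhasasim 500 against 20, 1 in Bojungikgi and 1 in Sayeok, and MT-RNR1 passed at 500 against vehicle in Bojungikgi (0.30, adjusted p = 3.59e-05) and in Sayeok (0.24, adjusted p = 0.00227). With only the groups compared, 46 genes were called in Banhasasim 100 against 20, 648 in Banhasasim 500 against vehicle and 54 in Bojungikgi, and 7 and 0 mitochondrial mRNAs in Banhasasim 100 and 500 against 20. DESeq2's Wald test called 8 mitochondrial mRNAs in Banhasasim 500 against 20, and MT-RNR1 in Bojungikgi against vehicle (0.30). The cause of these shifts was not tested.

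When 1 library was left out, genes called ranged from 6 to 10 in Banhasasim 100 against 20, 636 to 1519 in Banhasasim 500 against 20, 1470 to 3077 in Banhasasim 500 against vehicle, 164 to 354 in Bojungikgi, 386 to 445 in Sayeok and 167 to 424 in the difference. In Banhasasim 500 against 20 the counts were 777, 749 and 636 without 20 replicate 2, 20 replicate 3 and 500 replicate 2, those in the difference 190, 182 and 167, and against vehicle 1470 was without 500 replicate 3. In Bojungikgi 164 and 171 were without 20 replicates 2 and 3, and in Sayeok 386 was without 500 replicate 1 or 2. Mitochondrial mRNAs called ranged from 4 to 8 in Banhasasim 500 against 20 and 4 to 12 against vehicle. Where a group was left with 1 library, that library is assumed to vary like the other groups. MT-RNR2 had log2 fold changes near 0 that changed sign: -0.01 without the filter, -0.00 with only the groups compared and -0.07 to 0.09 with 1 library left out in Bojungikgi, and -0.06 to 0.04 in Sayeok. MT-ND5 at Banhasasim 500 against 20 was -0.64 without 500 replicate 2 and 0.31 without 500 replicate 3 (0.02 without 20 replicate 2), and its difference from the other extracts was -0.69 without 500 replicate 2 and 0.27 without 500 replicate 3.

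Without vehicle replicate 1, chosen after seeing the data, 5 mitochondrial mRNAs were called in Banhasasim 500 against 20. DESeq2 size factors and leaving mitochondrial genes out of the library sizes changed no call of a member. Same-numbered libraries showed no steady shared deviation (correlations of -0.104 to 0.195), and the main fit did not pair them. These correlations cannot show whether same-numbered libraries were handled together. With a replicate block 1553 genes were called in Banhasasim 500 against 20, MT-RNR1 had 0.15 in Bojungikgi 500 against 20, and no call of a member or of the count of mitochondrial mRNAs at 500 against 20 changed.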
